A study of Mus musculus with 3 samples.

Results

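The cells described here were the arterial endothelial cells (AECs) of adult mouse bone marrow (BM), 549 of the 7948 cells of the library Adult BM cells and 549 of 24875 cells in the series. They were chosen by measured values. A cell was taken when its Pecam1 and Kdr molecules together numbered at least 5 and made up at least 5% of its molecules, when it had no Ptprc molecule and when it had at least 2 Gja4 molecules. Pecam1 and Kdr encode surface proteins of endothelial cells (ECs), Ptprc encodes the blood cell antigen CD45, and Gja4 encodes a gap junction protein of arterial endothelium. Of the 1663 cells within the endothelial limits, 549 were members (33.0%, 30.8 to 35.3), 121 had exactly 1 Gja4 molecule and 993 had none. The last are called Gja4-zero ECs below and served as the comparison. Another 249 cells of the library had 2 or more Gja4 molecules and were not members, 12 because they had Ptprc and 237 because they did not reach the endothelial limits.

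The study asked how Wnt signals pass between vessels and blood progenitors of the marrow, and sequenced a targeted panel of transcripts in single cells of pooled C57/B6 wildtype mice, with 1 library for each of 3 groups. E18.5 EC held endothelial cells that were flow-sorted from fetal marrow at E18.5, either on CD31 (by the methods) or on CD31 and endomucin (by the design text). The other libraries, Adult BM cells and E18.5 BM cells, were marrow suspensions from which lineage antibodies on magnetic beads had removed mature blood cells. The labels state no age for the adult animals. With 1 library a group no difference could be tested, and every range in brackets is a 95% interval of counting error only. Differences between libraries cannot be told apart from differences in stage, cell preparation and depth.

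Arteries bring blood into the marrow and branch into arterioles and capillaries that feed the wide, leaky sinusoids. Endothelium of arteries depends on Notch signalling, which acts through the DNA-binding protein Rbpj and switches on transcriptional repressors such as Hey1. In the marrow, endothelial cells and perivascular reticular cells supply haematopoietic stem and progenitor cells with the chemokine Cxcl12 and with stem cell factor, the product of Kitl, and secreted Wnt proteins act on receptors of the frizzled family and on β-catenin.

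Molecules were counted with unique molecular identifiers for a panel of 125 targets. Adult BM cells held 6304495 molecules, and members held 110019 of them. A member had 163 molecules at the median, with a range of 37 to 1292, and 24 targets detected at the median. Gja4-zero ECs were shallower, at a median of 93 molecules and 18 targets. Levels are therefore given as molecules per 10000 panel molecules summed over the cells of a set, and shares of cells with a molecule are given, unless stated, on cells drawn down at random to 50 molecules each (543 members and 921 Gja4-zero ECs were deep enough). A level is a share of the panel, amplicons differ in efficiency, and levels were not compared between targets. Between 38 and 113 cell barcodes were shared by each pair of libraries, and 8 members carried such a barcode. Without all cells of shared barcodes 541 members remained, and of 40 ratios to Gja4-zero ECs that were recomputed, 39 moved by less than their counting error while that of Mgp moved from 2.88 to 2.69.

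The windows upstream of 3 of the marker genes are shown because the Notch factor Rbpj and the β-catenin partners of the TCF/LEF family are the DNA-binding ends of the pathways that the panel covers. They come from RefSeq on GRCm38.p6, end at the RefSeq start, and are printed 5′ to 3′ on the strand of the gene. Gja4 lies on chromosome 4, minus strand, and its window is chr4:127314040-127314289. Sema3g lies on chromosome 14, plus strand, and its window is chr14:31217623-31217872. Cxcl12 lies on chromosome 6, plus strand, and its window is chr6:117168285-117168534. Capitals mark a match, on either strand, to the Rbpj core TGGGAA (reverse complement TTCCCA) or to the TCF/LEF sequence CTTTGATC (reverse complement GATCAAAG).
Gja4: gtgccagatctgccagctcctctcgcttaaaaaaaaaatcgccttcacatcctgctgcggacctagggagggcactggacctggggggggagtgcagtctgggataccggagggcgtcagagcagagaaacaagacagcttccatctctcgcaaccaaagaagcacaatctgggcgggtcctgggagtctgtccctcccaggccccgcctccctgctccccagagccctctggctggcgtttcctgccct
Sema3g: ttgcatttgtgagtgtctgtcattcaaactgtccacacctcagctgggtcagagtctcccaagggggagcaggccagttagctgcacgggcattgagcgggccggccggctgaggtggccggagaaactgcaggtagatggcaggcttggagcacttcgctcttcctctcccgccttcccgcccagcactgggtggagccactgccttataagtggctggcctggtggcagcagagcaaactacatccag
Cxcl12: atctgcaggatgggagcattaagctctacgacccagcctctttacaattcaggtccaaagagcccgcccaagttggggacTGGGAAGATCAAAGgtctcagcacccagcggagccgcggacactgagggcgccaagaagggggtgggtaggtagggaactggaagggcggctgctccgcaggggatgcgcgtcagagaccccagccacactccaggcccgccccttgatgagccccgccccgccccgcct
The Cxcl12 window held both motifs side by side, without overlap, and the windows of Gja4 and Sema3g held neither of these letter runs. TGGGAA was present in 21.6% of 32851 promoter windows of 250 bases and CTTTGATC in 0.801%. These matches are a description of letters, and nothing in the counts bears on whether a factor binds there.

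Gja4 itself chose the cells and its level is given only as a description. Members had between 2 and 86 Gja4 molecules, with a median of 9, and 663 per 10000 (648 to 678). Its annotated transcript spans chr4:127311421-127314039 on GRCm38, in 2 exons. After thinning, 91.2% of members and 0.660% of the cells with at least 2 Ptprc and no Pecam1 or Kdr molecule still had Gja4. Those 322 cells, called Ptprc cells below, had a median of 78 molecules and serve as a set of another kind. Among them 5 cells held over 1000 molecules, up to 6249, and weigh on the summed levels of this set, so levels of the 317 others are given where they change a reading. At the threshold, the 62 members with exactly 2 Gja4 molecules had Sema3g at 584 per 10000, Hey1 at 112, Mecom at 86.1 and Cxcl12 at 476. The 121 cells just outside, with 1 molecule, had 359, 33.3, 36.6 and 237 for the same targets.

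The label was checked with the other markers. Sema3g is a secreted semaphorin that guides vessel and nerve growth, Mecom a zinc finger transcription factor found in arterial endothelium and in haematopoietic stem cells. All 4 of Sema3g, Hey1, Mecom and Cxcl12 had a molecule in 280 members before thinning (51.0%), and 2 members had none of them. After thinning, all 4 were found in 15.7% of members and in 1.09% of Gja4-zero ECs, and none in 1.29% and 43.2%. These markers were listed with results of the data in view, so they describe the members and are no independent support of the name. The levels of the endothelial targets that also chose the cells were lower in members than in Gja4-zero ECs, with Pecam1 at 1263 against 1799 and Kdr at 203 against 330. Cav1, which encodes the caveolin that coats pits in the cell surface and is used to stain arteries, was on the panel and had no molecule in members, Gja4-zero ECs or AECs of E18.5 EC, so the panel gave no usable reading of it in AECs. Of the 125 targets, 26 had no molecule in members.

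The comparison within the adult library asks what set AECs apart from the other ECs of the same marrow. Of 81 targets with at least 20 molecules in the sets together, 14 (17.3%) were at least 2-fold higher in members and 28 (34.6%) at least 2-fold lower, and the median ratio over the 81 was 0.654. Under every alternative that was run, 6 of the 14 stayed past 2-fold, Dkk2, Sema3g, Hey1, Fbln5, Mecom and Alpl. Of the 28 lower targets 13 did so, among them Apln, Stab1, Vwf, Myc and the 4 cell cycle targets.

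**Figure D1:**
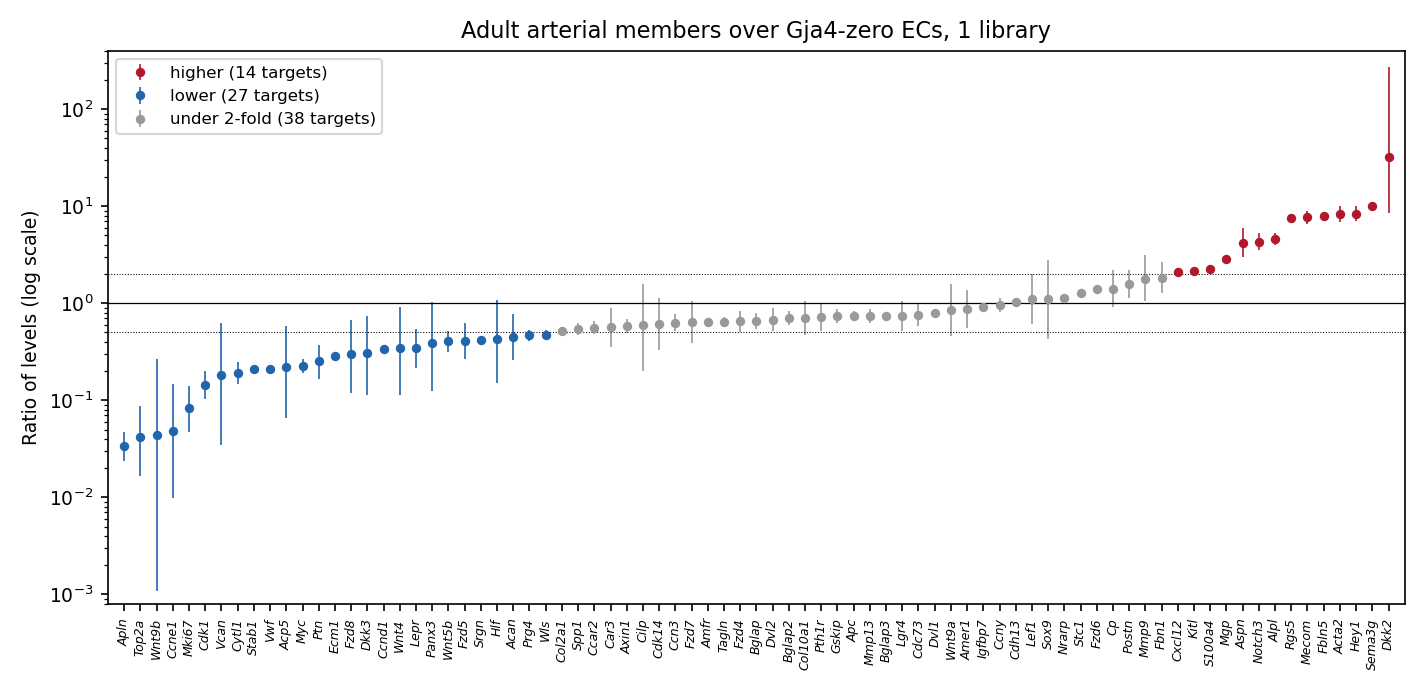
Ratio of the level in adult arterial members to that in Gja4-zero ECs for 79 of the 81 targets, on a log axis, in the order of the ratio. Points are ratios, bars are 95% intervals of counting error in 1 library, and dotted lines mark 2-fold. Apln stood lowest at 0.0339 and Dkk2 highest at 31.9.

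All 6 of the arterial list that could be compared were higher in members, with a median ratio of 7.82 beside the 0.654 of all targets. Sema3g stood at 809 per 10000 (792 to 826) in members, 79.9 (75 to 85.1) in Gja4-zero ECs and 2.41 in Ptprc cells. Its ratio was 10.1 (9.47 to 10.8), and after thinning 93.0% of members and 21.5% of Gja4-zero ECs had a molecule. The target was spread over the members, with a median of 13 molecules, a highest value of 77 and 124 cells holding 50% of the molecules. Its transcript spans chr14:31217860-31230352 in 16 exons. Hey1, the Notch-induced repressor (chr3:8663359-8667256), stood at 113 (107 to 120) against 13.5 (11.5 to 15.7), a ratio of 8.39 (7.12 to 9.94). Mecom (chr3:29951299-30509733) stood at 124 (118 to 131) against 16.2 (14.0 to 18.6), a ratio of 7.68 (6.60 to 8.96). None of the 3 was absent from Gja4-zero ECs, where 9.06% of cells had Hey1, 14.4% Mecom and 31.3% Sema3g before thinning.

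Fbln5, which encodes fibulin 5, a protein that organises elastic fibres in vessel walls, was at 492 per 10000 (479 to 505) in members and 61.8 (57.5 to 66.4) in Gja4-zero ECs, a ratio of 7.96 (7.37 to 8.60). It lies on chromosome 12 (chr12:101746565-101819055, 11 exons). Lepr cells, the 1798 reticular-type cells with at least 2 Lepr and no Ptprc, Pecam1 or Kdr molecule, had Fbln5 at 285. Mgp, the matrix protein that blocks calcification of arteries, was at 331 against 115, a ratio of 2.88 (2.71 to 3.07), but 16 members held 50% of its molecules. Its ratio was 1.46 with RSEC-adjusted molecules, the less strict of the pipeline's corrections for sequencing errors, and Ptprc cells stood at 167. Of the 6 elastic fibre and matrix targets, Fbln5 and Mgp were higher, 3 were lower and Fbn1, the fibrillin of microfibrils, was under the limit at 1.83 (1.27 to 2.65). Ecm1, a secreted matrix protein, was among the lower ones, at 108 against 378, a ratio of 0.287 (0.269 to 0.306). Vcan, the proteoglycan versican, rested on 3 molecules in members and 18 in Gja4-zero ECs, a ratio of 0.183 (0.0346 to 0.628) that reached 0.652 among the alternatives. Cytl1, a secreted cytokine-like protein, was at 6.09 against 31.6, a ratio of 0.193 (0.147 to 0.251), but 3 Gja4-zero ECs held 50% of it and without the richest 1% of cells the ratio was 0.537.

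Niche factors divided. Cxcl12 (chr6:117168574-117181366, 4 exons) was at 837 per 10000 (820 to 854) in members, 399 (388 to 411) in Gja4-zero ECs, 461 in Ptprc cells and 5158 in Lepr cells. The Ptprc value was pulled down by 5 deep cells, and without them it was 798 (768 to 829), close to the members. The level of Cxcl12 thus did not set members well apart from Ptprc cells, while the share of cells with it did. In neither respect did members stand above Lepr cells. Of thinned Lepr cells 97.6% had none of Sema3g, Hey1 and Mecom, but only 0.723% had none of Sema3g, Hey1, Mecom and Cxcl12. After thinning, 82.9% of members (79.4 to 86.0), 43.5% of Gja4-zero ECs (40.3 to 46.8) and 24.8% of Ptprc cells had a molecule. In Gja4-zero ECs 22 of the 993 cells held 50% of the Cxcl12 molecules, against 78 of the 549 members. The ratio of 2.10 (2.02 to 2.17) was 1.61 with RSEC-adjusted molecules and 3.57 once cells with targets of stroma or cartilage were left out of both sets. The same Lepr cells had 1.82 Lepr molecules for every 100 of Cxcl12, Gja4-zero ECs 1.76 and members 0.293. For Cp, another target of the reticular list, the gap was smaller, at 0.958, 0.828 and 0.554 in the same order. Kitl, of that list too, went the other way, at 7.61, 47.4 and 48.5. The part of RNA from reticular cells in these Cxcl12 levels was not tested.

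Kitl, stem cell factor, was at 406 per 10000 (395 to 418) in members and 189 (181 to 197) in Gja4-zero ECs, a ratio of 2.15 (2.04 to 2.26). It was read by a pair of amplicons that may count the same molecules, so these intervals are too narrow, and each amplicon alone gave a like picture, 195 against 92.2 and 212 against 96.9. Ptprc cells had Kitl at 38.0. With each cell counted equally the ratio was 1.84, under the limit. Ptn, pleiotrophin, a growth factor that maintains haematopoietic stem cells, went the other way, at 2.91 against 11.5, a ratio of 0.253 (0.167 to 0.374).

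**Figure D2:**
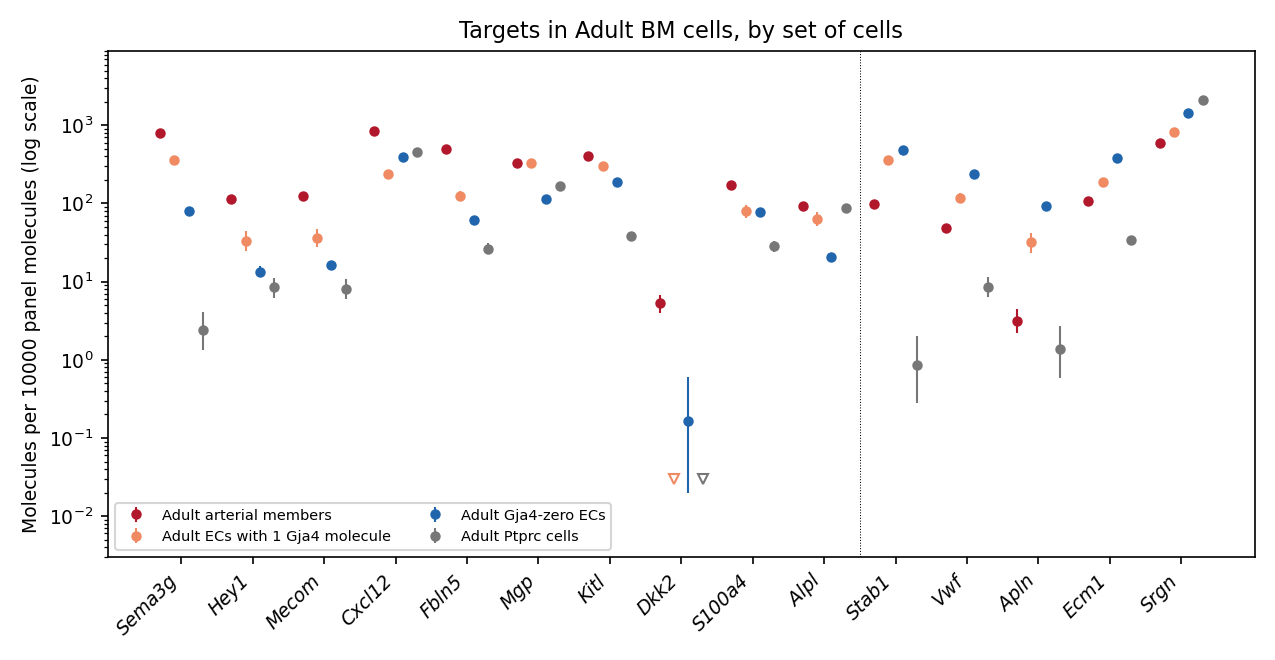
Level of 15 targets, in molecules per 10000 panel molecules on a log axis, in adult arterial members, ECs with 1 Gja4 molecule, Gja4-zero ECs and Ptprc cells of the same library, with bars of 95% counting error. Open triangles mark a set without a molecule, and the dotted line separates targets that were higher in members from those that were lower. Sema3g and Hey1 stepped down from members to Gja4-zero ECs, while Cxcl12 in Gja4-zero ECs, at 399, was below the 461 of Ptprc cells.

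The sinusoidal target and 1 of 3 capillary targets compared were lower in members. Stab1, a scavenger receptor of sinusoids (chr14:31139013-31168641, 69 exons), was at 99.4 per 10000 (93.6 to 106) in members and 477 (465 to 489) in Gja4-zero ECs, a ratio of 0.209 (0.195 to 0.223). It was still found in 35.2% of thinned members against 71.6% of thinned Gja4-zero ECs and 0.990% of Ptprc cells, so members were not without it. Apln, the apelin peptide of sprouting capillaries (chrX:48025146-48034853, 3 exons), was at 3.18 (2.22 to 4.42) against 93.8 (88.4 to 99.4), a ratio of 0.0339 (0.0235 to 0.0474). Apln was detected in 3.83% of members and 24.8% of Gja4-zero ECs before thinning, and in 1.29% and 17.3% after it. The secreted glycoprotein Stc1 and the cadherin Cdh13, of the capillary list too, differed by less than 2-fold, with ratios of 1.26 (1.14 to 1.40) and 1.04 (0.953 to 1.13).

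Vwf, the clotting protein that endothelium stores, was at 49.1 against 235, a ratio of 0.209 (0.190 to 0.229). Srgn, the proteoglycan of secretory granules, was abundant in every set, at 594 in members, 1430 in Gja4-zero ECs and 2116 in Ptprc cells. Its ratio was 0.416 (0.404 to 0.428) and did not stay past 2-fold under every alternative. Of thinned members 89.0% held Srgn, and of thinned Ptprc cells 98.4%. The part of RNA from blood cells in the Srgn of members was not tested.

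Cell cycle targets were scarce in members. Mki67, Top2a, Cdk1 and Ccne1 together gave 67 molecules in the 549 members, 6.09 per 10000 (4.72 to 7.73), against 63.9 (59.5 to 68.6) in Gja4-zero ECs, a ratio of 0.0953 (0.0731 to 0.122). All 4 were at least 2-fold lower, with ratios of 0.0416 for Top2a, the topoisomerase of dividing cells, 0.0485 for cyclin E1 (Ccne1), 0.0838 for the proliferation marker Mki67 and 0.145 for the kinase Cdk1. The size depended on the correction. With RSEC-adjusted molecules the ratios were 0.405 for Top2a, 0.458 for Ccne1, 0.433 for Mki67 and 0.339 for Cdk1, all still past 2-fold. Few cells carried these targets in either set, 3.31% of thinned members and 8.79% of thinned Gja4-zero ECs. Ccnd1, cyclin D1, was at 63.2 against 189, a ratio of 0.334 (0.307 to 0.364), and Myc at 15.2 against 66.7, a ratio of 0.228 (0.191 to 0.269). The Wnt transcription factor Lef1 gave 25 molecules in each set.

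Wnt ligands were sparse in members, as in the other ECs. The panel held 17 of them, and 9 had no molecule in any member. All ligands together gave 120 molecules, 10.9 per 10000 (9.04 to 13.0), against 26.4 (23.6 to 29.4) in Gja4-zero ECs, a ratio of 0.414 (0.333 to 0.512). A thinned cell had a ligand in 5.16% of members and 11.2% of Gja4-zero ECs. Wnt5b, a ligand of non-canonical signalling, gave 84 of the 120 molecules, in 37 members, and stood at 7.64 (6.09 to 9.45) against 18.8 (16.5 to 21.5), a ratio of 0.405 (0.312 to 0.523). With the endothelial limit set at 10% of molecules that ratio was 0.504, just short of 2-fold.

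Other ligands rested on few molecules. Wnt9a gave 21 molecules in 20 members and a ratio of 0.855 (0.460 to 1.57). Wnt4 gave 6 against 19, a ratio of 0.347 (0.114 to 0.905) that turned to 1.15 once cells with targets of stroma or cartilage were left out. Wnt11 gave 4 against 7, Wnt9b 1 against 25 with 3 Gja4-zero cells holding 50% of its molecules, and Wnt2 none against 9. At this depth the count of 0 for Wnt2 allows up to 0.273 per 10000 in members. Wls, the carrier that takes Wnt proteins to the cell surface, was found in 22.5% of members, at 47.5 (43.5 to 51.8) against 101 (95 to 106), a ratio of 0.473 (0.426 to 0.524). The Wls ratio did not stay past 2-fold under every alternative.

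Of the 8 frizzled receptors, Fzd6, which gave 971 molecules in members, stood at 88.3 (82.8 to 94) against 63.5 (59.1 to 68.1), a ratio of 1.39 (1.26 to 1.53), and had a molecule in 34.3% of thinned members and 27.7% of thinned Gja4-zero ECs. Fzd4, a receptor that also binds norrin in retinal vessels, was at 9.36 against 14.4, a ratio of 0.651 (0.505 to 0.835). Fzd5 and Fzd8 were at least 2-fold lower, at ratios of 0.412 (0.268 to 0.622) and 0.303 (0.120 to 0.680), from 33 and 8 molecules, and Fzd7 and Fzd3 gave 28 and 7. With RSEC-adjusted molecules the Fzd5 ratio was 0.718, short of 2-fold. Of the 6 transduction targets compared, none reached 2-fold in either direction, and their ratios had a median of 0.708, near the 0.654 of all targets.

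Dkk2 had the largest ratio. It encodes a secreted Dickkopf protein that binds Wnt co-receptors. It gave 58 molecules in 43 members and 2 molecules in 2 Gja4-zero ECs, a level of 5.27 (4 to 6.82) against 0.165 (0.0200 to 0.597) and a ratio of 31.9 (8.44 to 270). It was found in 7.83% of members and 0.201% of Gja4-zero ECs before thinning, and at 0 in Ptprc cells, where a count of 0 allows up to 0.516 per 10000. Its transcript spans chr3:132085292-132180304 in 4 exons. Dkk3, a relative, was lower instead, at a ratio of 0.308 (0.112 to 0.732) from 7 and 25 molecules.

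**Figure D3:**
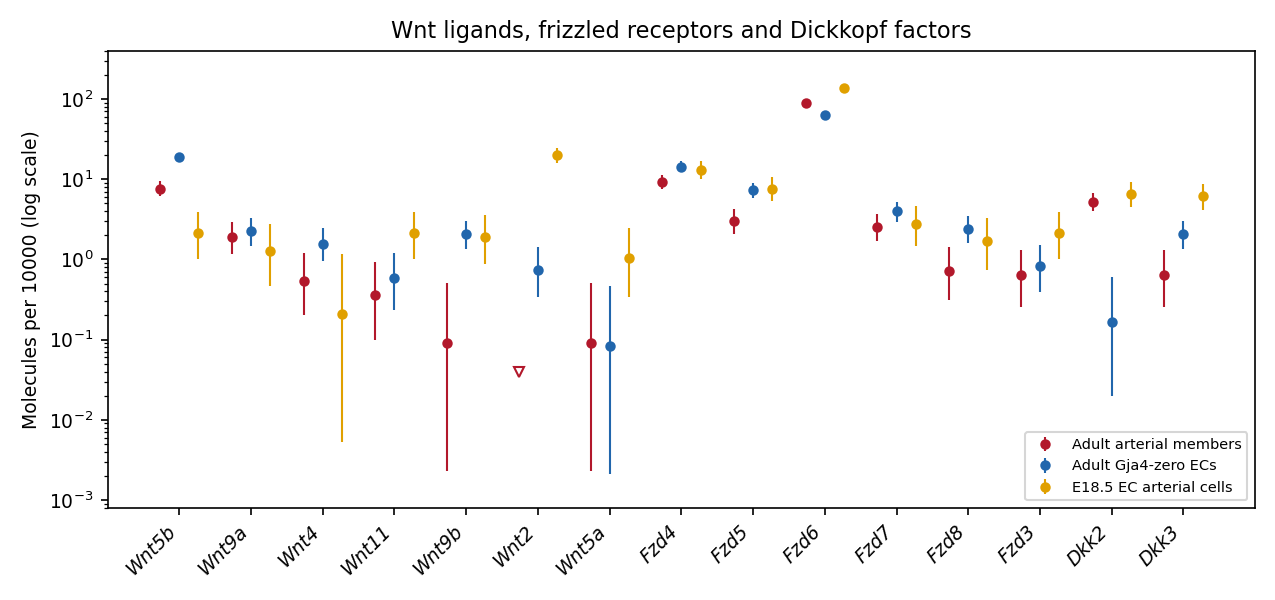
Level of Wnt ligands, frizzled receptors and Dickkopf factors, in molecules per 10000 panel molecules on a log axis, in adult arterial members, Gja4-zero ECs and E18.5 EC arterial cells, with bars of 95% counting error. The open triangle marks Wnt2 in members, where it had no molecule, against 19.8 in E18.5 EC arterial cells.

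Targets of mural cells, the smooth muscle cells and pericytes that wrap vessels, stood out in a small group of members. Acta2, smooth muscle actin, was at 88.0 against 10.7, a ratio of 8.25 (6.86 to 10), Rgs5 of pericytes at 388 against 51.6, a ratio of 7.53 (6.92 to 8.21), and Notch3, the Notch receptor of mural cells, at 45.7 against 10.7, a ratio of 4.29 (3.53 to 5.24). Tagln, the fourth of the list, was under the limit at 0.648. The molecules were concentrated, with 5 members holding 50% of Acta2, 11 of Rgs5 and 9 of Notch3. Before thinning, at least 2 mural molecules were found in 107 members (19.5%) and 99 Gja4-zero ECs (9.97%), against 11.5% of Ptprc cells and 83.8% of the much deeper Lepr cells. Acta2 was found in 11.6% of thinned Ptprc cells and 7% of thinned members, so its share in members was not above that of cells of another kind. At an endothelial limit of 10% the ratio was 1.83 for Acta2, 1.78 for Rgs5 and 1.88 for Notch3, and once cells with targets of stroma or cartilage were left out it was 1.36 for both Rgs5 and Notch3. Aspn, an extracellular matrix protein, had a ratio of 4.15 (2.98 to 5.91) that was 0.512 at the 10% limit and 25.1 without the richest 1% of cells.

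A split of members by Rgs5, made after these values were seen, describes that group. The 51 members with at least 5 Rgs5 molecules had a median of 323 molecules, against 149 in the 415 members without Rgs5. They had Acta2 at 441 against 11.4, Notch3 at 236 against 4.13, Tagln at 289 against 5.09 and Mgp at 972 against 203. Gja4 was lower in them, at 383 against 724, as were Cxcl12 at 459 against 854, Pecam1 at 758 against 1408 and Stab1 at 23.5 against 121. Sema3g was at 631 against 826, and Fbln5 differed little, at 484 against 475. The cut on an absolute count favours deep cells, and the rule gives every member endothelial molecules, so both are set by the choice of cells. No caller of doublets was run, and whether a barcode held more than 1 cell was not tested. Without all cells of mural targets the ratios of Sema3g, Hey1, Mecom and Fbln5 to Gja4-zero ECs stayed past 2-fold.

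Alpl and S100a4 completed the higher targets. Alpl, alkaline phosphatase, known from osteoblasts, was at 94.3 (88.6 to 100) against 20.6 (18.1 to 23.3), a ratio of 4.58 (3.98 to 5.28), and was found in 37.0% of members before thinning. It was the only 1 of 7 osteoblast targets to be called, the others lying at ratios from 0.548 for Spp1 to 0.743 for Bglap3. Ptprc cells had Alpl at 87.2, or 11.7 without the 5 deep cells, and 3.63% of them carried it after thinning, against 22.5% of members. S100a4, a calcium-binding protein, was at 175 against 76.9, a ratio of 2.28 (2.10 to 2.46), and after thinning in 34.1% of members and 7.27% of Gja4-zero ECs. In Gja4-zero ECs 3 cells held 50% of it, and with the richest 1% of cells left out the ratio was 10.6. At an endothelial limit of 10% the S100a4 ratio was 1.67, short of 2-fold.

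Notch targets were uneven. Nrarp, a feedback inhibitor of Notch, was at 74.7 against 65.9, a ratio of 1.13 (1.03 to 1.25), under the limit in contrast to Hey1. Notch3 was past the limit too, but stood at 236 in members with at least 5 Rgs5 molecules and at 4.13 in those without Rgs5. Of the blood markers, Hlf, a factor of stem cells, gave 7 molecules in all members against 18 in Gja4-zero ECs. Acp5, of osteoclasts, gave 5 against 25, and Ptprc was at 0 by the rule. Mmp9, of the same list, went the other way, with 39 molecules against 24, a ratio of 1.79 (1.05 to 3.11), under the limit. Of the reticular markers, Lepr was at 2.45 against 7.03, a ratio of 0.349, and Adipoq had no molecule in either set. Kitl and Cp, of the same list, had ratios above 1, of 2.15 (2.04 to 2.26) and 1.40 (0.909 to 2.18). Of the 4 cartilage targets only Acan was called, lower at 0.453 (0.259 to 0.766), and Col2a1 was at 43.4 against 84.6. The summed level of the cartilage list was 50.3 in members and 95.4 in Gja4-zero ECs, and that of the osteoblast list 419 and 476. The part of RNA from these other cells in the lower ratios of cartilage and bone targets was not tested.

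Members varied with their own Gja4. They were divided into 145 cells with 2 to 4 molecules, 153 with 5 to 9, 134 with 10 to 19 and 117 with 20 or more, at median depths of 110, 136, 206.5 and 260. Depth therefore moved with the band, and levels per panel molecule are given. Fbln5 was at 310, 431, 575 and 557 per 10000 in the 4 bands, Mecom at 83.0, 104, 123 and 162, and Cxcl12 at 615, 773, 757 and 1078. Sema3g changed less, between 707 in the lowest and 878 in the next to highest band, and Hey1 stayed between 98.1 and 127.

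Some targets were lower in the highest band than in the lowest. Stab1 was at 195 (176 to 216) in the lowest band and 66.1 (57.8 to 75.3) in the highest, and Vwf was at 59.6 and 23.2. Alpl was at 180 in the lowest band and 33.6 in the highest, although it was higher in members than in Gja4-zero ECs. Wnt5b was at 15.4 and 4.64, and Kitl differed little, at 406 and 423. These bands were cut from the count that chose the members, so the values are a description without a test. Cells with 1 Gja4 molecule stood between members and Gja4-zero ECs for Sema3g at 359, Fbln5 at 125 and Stab1 at 358, but not for Cxcl12, where their 237 was the lowest of all bands.

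**Figure D4:**
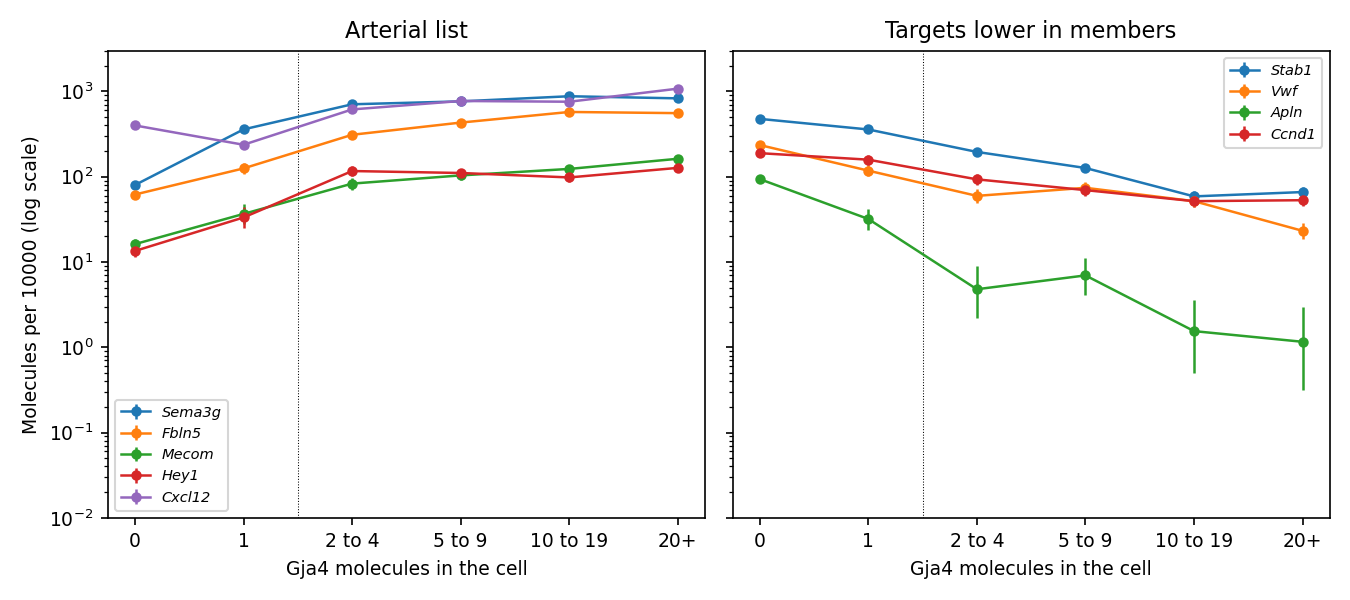
Level of 5 arterial targets and of 4 targets that were lower in members, in molecules per 10000 on a log axis, by the number of Gja4 molecules in the cell. Bars are 95% intervals of counting error, and the dotted line marks the threshold for members. Fbln5 and Mecom were lowest in cells without Gja4, whereas Stab1 went from 477 without Gja4 to 66.1 at 20 or more molecules.

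The same rule in E18.5 EC found 349 arterial cells among 2953 within the endothelial limits (11.8%, 10.7 to 13.0), with a median depth of 113 molecules. E18.5 BM cells gave 42 of 373 (11.3%, 8.24 to 14.9). Endomucin is low on arterial endothelium, and the higher adult share cannot be told apart from the sort or from depth. Between arterial and Gja4-zero cells of E18.5 EC, 29.0% of 69 targets were called higher and 20.3% lower. Of the 66 targets that could be compared within both the adult library and E18.5 EC, 14 were higher in adult AECs and 18 in fetal AECs, and 13 were shared, 92.9% of the adult and 72.2% of the fetal calls. The lower calls shared 10 targets, 43.5% of the 23 adult and 71.4% of the 14 fetal ones. The shared lower targets included Apln, Ccnd1, Ccne1, Cdk1, Fzd5, Mki67, Myc, Stab1 and Top2a. In the 42 arterial cells of E18.5 BM cells, 16.0% of 50 targets were called higher and 34.0% lower against the 315 Gja4-zero cells there, with Sema3g at a ratio of 8.85 (6.64 to 11.9), Hey1 at 5.11 (3.92 to 6.67) and Mecom at 5.52 (4.17 to 7.31).

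Arterial regulators were several-fold higher in AECs of both libraries. Sema3g stood 10.1 times higher in adult and 11.2 (10.2 to 12.4) times higher in fetal AECs than in Gja4-zero ECs of their own library, Mecom 7.68 and 6.88 (6.22 to 7.60), Hey1 8.39 and 13.1 (11.8 to 14.6), and Dkk2 31.9 and 33.8 (12 to 132). Cxcl12 was at 418 in fetal AECs and 8.85 in fetal Gja4-zero ECs, a ratio of 47.3 (40.6 to 55.3) against the adult 2.10. Adult Gja4-zero ECs, with 399, stood 45.1-fold (38.9 to 52.6) above the fetal ones, as a set in which 22 cells held 50% of the molecules. Mgp behaved alike, with ratios of 36.7 (31.9 to 42.5) in E18.5 EC and 2.88 in the adult. Kitl was no higher in fetal AECs than in their neighbours, at a ratio of 0.990 (0.939 to 1.04), and 2.15 in the adult.

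**Figure D5:**
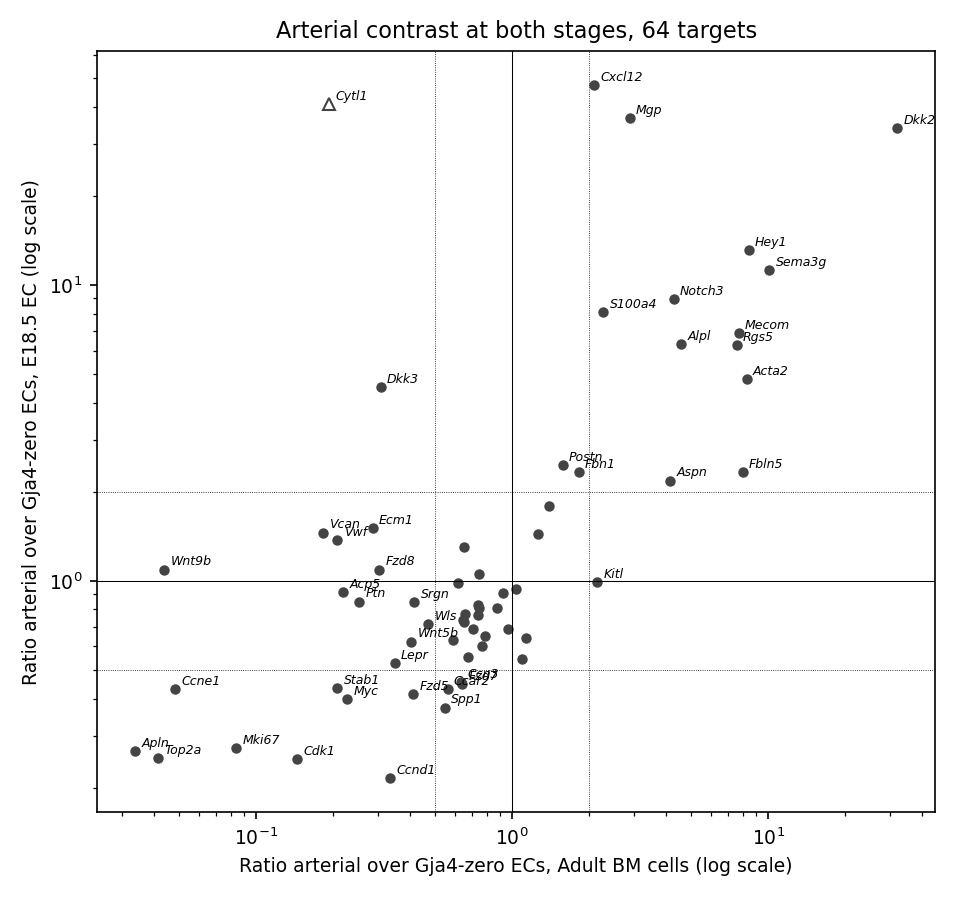
Ratio of arterial to Gja4-zero ECs for 64 of the 66 targets, in Adult BM cells on the horizontal and in E18.5 EC on the vertical log axis, each point a target and dotted lines at 2-fold. The open triangle marks Cytl1, a lower bound at E18.5. Sema3g, Hey1 and Mecom stood above 2-fold on both axes, and Stab1 and Apln below it on both.

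Adult AECs were then set directly against the AECs of E18.5 EC, 1 library against another. Of 73 targets, 27 (37.0%) were at least 2-fold higher in the adult and 20 (27.4%) at least 2-fold lower. The same stage comparison of Gja4-zero ECs gave 42.0% and 27.2% of 81 targets, shares near those of AECs. The highest ratios were those of bone and cartilage targets, Bglap3, Col2a1, Prg4, Bglap2, Bglap, Alpl, Car3 and Mmp13. Bglap3, an osteocalcin gene, stood at 233 in adult and 0.422 in fetal AECs, a ratio of 553 (153 to 4567), and Col2a1, the collagen of cartilage, at 43.4 against 0 molecules, at least 68.5-fold. Adult Ptprc cells had Bglap3 at 1144 and Col2a1 at 734, or 519 and 103 without the 5 deep cells, above the members, and both targets were found in every adult set compared. Prg4, a joint lubricant, was at least 43.1-fold higher, and the osteocalcin genes Bglap2 and Bglap were 32.9-fold (11.1 to 161) and 24.8-fold (8.36 to 122) higher from 3 fetal molecules each. Car3, a carbonic anhydrase, was 13.8-fold higher, from 1 fetal molecule. Alpl was higher by 17.2-fold (11.7 to 26.4) and the collagenase Mmp13 by 13.4-fold (6.67 to 31.3). All 7 osteoblast, all 3 cartilage and all 4 mural targets compared were higher in the adult, with summed osteoblast levels of 419 and 11.8. The part of RNA from other cells of the library in these ratios was not tested.

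Within the endothelial targets the stages differed both ways. Sema3g was 2.42-fold (2.30 to 2.56) and Cxcl12 2-fold (1.91 to 2.10) higher in adult AECs, Fbln5 and Kitl were within 2-fold, at 1.34 and 1.10, and Hey1 was lower, at 113 against 286, a ratio of 0.395 (0.366 to 0.427). Mecom had a ratio of 0.584 (0.538 to 0.634). Between the Gja4-zero ECs of these libraries the ratios were 2.69 (2.43 to 2.98) for Sema3g, 45.1 for Cxcl12, 0.616 for Hey1 and 0.523 for Mecom. These had the same directions as in AECs, while Fbln5 and Kitl were lower there, at 0.391 and 0.508. With a panel total free of the 4 targets of the rule, the median over targets moved from 0.856 to 0.705, a shift of -0.28 on the log2 scale, and neither Sema3g nor Cxcl12 stayed past 2-fold in every alternative, while Hey1 did. Stab1 was at 99.4 against 250 and Vwf at 49.1 against 311, a ratio of 0.158 (0.143 to 0.174).

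The lowest ratios were those of Top2a, Wnt2, Ccne1, Apln, Mki67, Cdk1, Ptn and Dkk3. The 4 cell cycle targets together were at 6.09 in adult and 197 (185 to 210) in fetal AECs, a ratio of 0.0309 (0.0237 to 0.0396), and 24.5% of thinned fetal AECs held a molecule of them against 3.31% of members. Gja4-zero ECs went the same way, with a ratio of 0.0860 (0.0799 to 0.0925). Between AECs the size depended on the correction here too. With RSEC-adjusted molecules the ratio went from 0.0115 to 0.0779 for Top2a and from 0.0156 to 0.181 for Ccne1. With raw molecules it went from 0.0290 to 0.186 for Mki67 and from 0.0503 to 0.142 for Cdk1. Apln was at 3.18 against 127, a ratio of 0.0250 (0.0173 to 0.0352), and Ptn at 2.91 against 52.7, a ratio of 0.0551 (0.0369 to 0.0799). Dkk3 had a ratio of 0.104 (0.0385 to 0.243).

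Wnt2, a ligand of β-catenin signalling, gave 94 molecules in 21 fetal AECs, 19.8 per 10000 (16.0 to 24.3), and none in the 549 adult members, at most 0.0138 of the fetal level. The fetal value was 2.09-fold (1.62 to 2.69) that of fetal Gja4-zero ECs, and the 42 arterial cells of E18.5 BM cells had no Wnt2 molecule, where 5187 molecules in all allow up to 5.78 per 10000. Wnt5b was the reverse, 3.62-fold (1.87 to 7.82) higher in adult AECs. Both directions were also those of Gja4-zero ECs between these libraries, at 0.0785 (0.0354 to 0.152) for Wnt2 and 5.57 (4.24 to 7.39) for Wnt5b. The ratio of all ligands summed was 1.66 (1.42 to 1.95) in Gja4-zero ECs, unlike that of AECs. With all ligands summed, adult AECs stood at 10.9 and fetal AECs at 28.7 (24.1 to 33.9), a ratio of 0.380 (0.295 to 0.490), and frizzleds at 105 and 168, a ratio of 0.623 (0.568 to 0.682). Against AECs of E18.5 BM cells the ratios were 2.83 (0.766 to 23.6) for ligands, from 2 fetal molecules, and 0.988 (0.754 to 1.32) for frizzleds.

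Against the 42 arterial cells of E18.5 BM cells, whose preparation by depletion was the nearer to that of the adult library, 31.3% of 67 targets were at least 2-fold higher in adult AECs and 22.4% were called lower. The lower calls include Acan and Lef1, with 21 and 25 adult molecules and none in the 42 fetal cells. Their ratios, at least 0.330 and at least 0.393, are lower bounds and show no direction, so the share called lower is too high. Sema3g was 3.30-fold and Cxcl12 4.57-fold higher there, Hey1 had a ratio of 0.528 and Mecom of 0.620, and Apln was lower at 0.0185. For these 5 targets the direction was that seen against E18.5 EC. Of the 67 targets 18 had calculated ratios on opposite sides of 1 against the fetal libraries. Among them Acan, Car3, Col10a1, Cp, Lef1 and Mmp9 had no molecule in the 42 cells, so their ratios there are lower bounds and show no side. Of the 18 targets, 3 had both intervals clear of 1. These 3, named after their values were seen, were Stab1 with 1.61 (1.13 to 2.37) here and 0.397 (0.365 to 0.431) against E18.5 EC, Ecm1 with 2.44 and 0.818, and Postn, a matrix protein, with 0.0912 (0.0632 to 0.133) and 4.26 (2.15 to 9.62).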

How the data were processed

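Single cells were captured with the BD Rhapsody system and amplified with a targeted mouse panel, in 1 library for each of 3 groups. The authors aligned reads to GRCm38 and, per the file headers, ran release 1.8 of the vendor's targeted pipeline, which made the deposited counts of molecules per cell and amplicon with DBEC (distribution-based error correction). RSEC-adjusted and raw counts in the same files served as alternatives. DBEC removes molecules of few reads, so low counts may be lost.

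Molecules were summed per cell and symbol with Python 3.11.15, pandas 2.3.3, numpy 2.4.6 and scipy 1.17.1. Cells with at least 20 molecules were used, the endothelial limits being 5 molecules and 5%. A set's level was its molecules per 10000 panel molecules, with an exact Poisson interval. Ratios had exact conditional binomial intervals and shares Clopper-Pearson intervals, all at 95%. Molecules within a cell are not independent, so these cover counting error only. A target was called at 2-fold with 20 molecules in both sets together, the 4 targets of the rule not being called. Against a set at 0 a floor of 3 counts was used. Thinning drew 50 molecules a cell with seed 1. No test was run, since libraries were not replicated. Functions were tested on simulated data. No annotation of cells by the authors was used here and no doublet caller was run.

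Members and target lists were chosen with earlier results of these data known. Named were the 5 markers, the 12 highest and 12 lowest ratios of called targets within the adult library, Wnt ligands and frizzleds with at least 10 molecules, the arterial, Notch and niche lists, and the 8 highest and 8 lowest called targets between stages. Other targets named in a list were chosen after their values were seen. The values of 2 compared targets are not reported here. Promoter windows came from RefSeq (GRCm38.p6), transcript spans from GENCODE vM21. The alternatives were other corrections, totals, depth ranges, cell limits and molecule minimums, and leaving out cells with stromal, cartilage or mural targets, the richest cells of a target or shared barcodes. Alternatives on mural targets, barcodes and deep Ptprc cells were added after seeing the data.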

Additional observations from a re-analysis of the deposited data

Results flagged for a closer look

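For 4 targets the ratio of arterial to Gja4-zero ECs pointed one way in Adult BM cells and the other way in E18.5 EC, with intervals of counting error on opposite sides of 1. The differences between libraries were not tested, since each stage had 1 library. Vwf had a ratio of 0.209 (0.190 to 0.229) in the adult and 1.37 (1.29 to 1.45) at E18.5, and AECs of E18.5 BM cells had 4.68 (3.55 to 6.16). Dkk3, the Dickkopf relative, had 0.308 in the adult, from 7 molecules in members, and 4.52 (2.59 to 7.88) at E18.5, and no molecule in the AECs of E18.5 BM cells. Cytl1, a secreted cytokine-like protein, had 0.193 in the adult, where 4 members and 3 Gja4-zero ECs held 50% of its molecules, and at least 40.7 at E18.5. Ecm1 had 0.287 in the adult and 1.51 (1.38 to 1.66) at E18.5, but 0.872 (0.536 to 1.36) in E18.5 BM cells.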

How the results depend on the processing

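Of 515 recomputed ratios of members to Gja4-zero ECs for 40 targets, 370 stayed within the counting error of the reported value, 141 moved beyond it and 4 of called targets turned direction, and of 208 adult to fetal ratios for 16 targets 33 moved and 0 turned. The number of targets at least 2-fold higher was 14 and was 8 with RSEC-adjusted molecules and 9 with an endothelial limit of 10%, and the number lower was 28 and was 17 with RSEC-adjusted molecules. Members numbered 549, and 335 among cells of 100 to 300 molecules. The turned ratios were those of Acta2 (0.954) and Notch3 (0.692) without cells of mural targets, a filter that removes the molecules it is read on and so lowers them by construction, Aspn (0.512) at the limit of 10%, and Wnt4 (1.15) without cells of stromal or cartilage targets, where fewer cells entered. Uncalled ratios of few molecules crossed 1 too, as Wnt9a from 0.855 to 1.15 and Wnt11 from 0.628 to 1.07. RSEC-adjusted molecules moved the median ratio by 0.26 on the log2 scale within the adult library and by 0.39 between stages. The cause of the other changes was not tested. Sparse targets, Wnt ligands above all, are limited by depth. No paired analysis was possible because each group had 1 library.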
